A study of Mus musculus with 18 samples.

Results

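The TAM receptors Tyro3, Axl and Mertk and their ligands Gas6 and Pros1 were described across 6 groups of mouse embryonic fibroblasts (MEFs). The 5 genes were found by symbol among the 51499 loci of the deposited expression table, and each had 1 locus. MEFs labelled Ago2+/+ or Ago2-/- were treated with DMSO as the solvent control or with a drug that stresses the endoplasmic reticulum (ER). The stressors were tunicamycin, an inhibitor of protein N-glycosylation, and thapsigargin (500 nM), an inhibitor of the calcium pump of the ER. There were 18 RNA-seq libraries, 3 for each group. Ago2 encodes an Argonaute protein that cleaves or silences mRNAs paired with small RNAs, and the study asked which mRNAs respond to ER stress differently in its absence. The sources used here do not say which part of Ago2 is removed in the Ago2-/- cells or whether libraries came from separate cultures. At least 3 biological replicates per experiment are reported by the study, with 1 exception outside the sequencing, but a replicate is not defined. The study states that its cell lines had not been authenticated, and that the Ago2-/- MEFs were checked for loss of the AGO2 protein by western blot.

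The TAM receptors are receptor tyrosine kinases of the cell surface. Their ligands Gas6 and protein S, the product of Pros1, are secreted proteins that carry vitamin K-dependent carboxylated glutamates (a Gla domain), by which they bind phosphatidylserine on dying cells and bridge these to the receptor. The receptors are known for the engulfment of dying cells by macrophages, mainly through Mertk, and for damping inflammatory signalling, while Axl is typical of fibroblasts and other mesenchymal cells. All 5 proteins are made at the ER and are glycosylated.

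Each group had 1 deposited FPKM per locus, an estimate of fragments scaled for transcript length and sequencing depth that the authors had made over the 3 libraries. It carried no SD, and the authors' own test columns in the table were not used, so no difference below has a replicate check or a p. Depth is unknown. A difference was counted as past 2-fold where log2 of the ratio of (FPKM + 0.1) was at least 1 in size, among the 11929 loci whose mean over the 6 groups reached 1 FPKM. All 5 genes passed that filter on the mean, although Mertk, with a mean of 1.42 FPKM, had a median of 0.886 FPKM over the 6 groups.

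The labels need care. Genotype labels conflict for 4 libraries, which were grouped by title, and the Ago2 mRNA level did not follow the labels, whereas the study's western blot of the Ago2-/- cells, whose relation to these libraries is not stated, bears on the protein. It was at 22.1, 5.75 and 17.0 FPKM in DMSO, tunicamycin and thapsigargin of the cells labelled Ago2+/+, and at 5.61, 15.5 and 20.7 FPKM in those labelled Ago2-/-. Among the Ago2-/- groups only DMSO was low in Ago2, and Ago2+/+ tunicamycin was about as low. Over 11924 loci other than the TAM genes, 3 pairs of groups were closest, and each crossed both label and treatment. These were Ago2+/+ tunicamycin with Ago2-/- DMSO (Spearman's rho 0.985 across loci), Ago2+/+ thapsigargin with Ago2-/- tunicamycin (0.985) and Ago2+/+ DMSO with Ago2-/- thapsigargin (0.977). The other 12 pairs lay between 0.876 and 0.906. No value per library was used, so results without the doubtful libraries could not be given, and treatment, genotype and label cannot be told apart in the comparisons below. Of 10 fibroblast markers, 7 had a mean of at least 1 FPKM. Vim was at 952 to 2634 FPKM and Col1a1 at 5.97 to 651 FPKM, whereas Thy1 was listed at 0 in all groups.

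Mertk (ENSMUSG00000014361, plus strand of chr2:128698956-128802894, GRCm38) was the least abundant TAM receptor in every group, and it is the gene of this family that the study named. Its level was 2.53 FPKM in DMSO, 0.782 in tunicamycin and 0.684 in thapsigargin of the cells labelled Ago2+/+, and 0.597, 0.991 and 2.97 FPKM in the same order in those labelled Ago2-/-. The Ago2-/- thapsigargin and Ago2+/+ DMSO groups were high and the other 4 were below 1 FPKM. In the cells labelled Ago2+/+, Mertk was 3.23-fold lower with tunicamycin and 3.69-fold lower with thapsigargin than in DMSO. In those labelled Ago2-/- it was 1.66-fold higher with tunicamycin, short of 2-fold, and 4.97-fold higher with thapsigargin. The study chose its candidates, with a cut-off on P, for being lower in Ago2+/+ and higher in Ago2-/- cells under both stressors. For Mertk these directions are therefore how it came to be named and not a result of this description. With tunicamycin the study also reported AGO2-dependent Mertk levels by RT-qPCR, binding of Mertk mRNA by AGO2, and AGO2-dependent decay of that mRNA after a block of transcription. Those experiments are outside the data used here.

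The study assayed Mertk by RT-qPCR with a primer pair that was located here in the reference transcript. The amplicon of 170 bases is shown because it marks which part of Mertk that assay reads, with the primer sites in capitals. It spans exons 12 to 14 of 19 of Mertk-201 (transcript positions 1852 to 2021, chr2:128779001-128782601 on the plus strand with the introns between), lies wholly in coding sequence and matched 2 transcripts, both of Mertk.
Mertk amplicon: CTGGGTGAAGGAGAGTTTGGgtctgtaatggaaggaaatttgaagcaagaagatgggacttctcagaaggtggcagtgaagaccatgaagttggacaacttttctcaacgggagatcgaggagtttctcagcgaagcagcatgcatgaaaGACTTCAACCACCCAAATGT
FPKM was summed over the whole locus and not over this stretch. Mertk has 2 annotated transcripts, 1 of them protein coding. Inside its span lie the annotated genes Gm23172 and Gm14011, both listed at 0 in all 6 groups.

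Axl (ENSMUSG00000002602, minus strand of chr7:25757273-25788705), the receptor bound only by Gas6, was the main TAM receptor of these cells. It was at 180, 226 and 159 FPKM in DMSO, tunicamycin and thapsigargin of the cells labelled Ago2+/+ and at 213, 111 and 150 FPKM in those labelled Ago2-/-. From highest to lowest the spread was 2.04-fold, and 36.9% of all loci varied more on the log2 scale. The 1 difference past 2-fold set the tunicamycin groups against each other, with Axl 2.04-fold lower under the Ago2-/- label. Tyro3 (ENSMUSG00000027298, plus strand of chr2:119797733-119818104), a receptor best known in the nervous system, was at 13.6, 9.11 and 11.2 FPKM in the Ago2+/+ groups and at 9.34, 12.8 and 9.10 FPKM in the Ago2-/- groups, in the same order of treatments. Its levels lay within 1.49-fold of each other, 69.7% of all loci varied more, and it passed 2-fold in none of the 7 comparisons. Axl and Tyro3 each have 8 annotated transcripts, which the locus value does not separate.

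Among the 3 receptors, FPKM being per length, Axl made up 89.0 to 95.8% of the summed level, Tyro3 3.87 to 10.3% and Mertk 0.268 to 1.83%. The order Axl, Tyro3, Mertk was the same in all 6 groups. The sum was lowest in Ago2-/- tunicamycin at 125 FPKM and highest in Ago2+/+ tunicamycin at 236 FPKM. Mertk at its highest, in Ago2-/- thapsigargin, was still 50.5-fold below Axl.

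**Figure D1:**
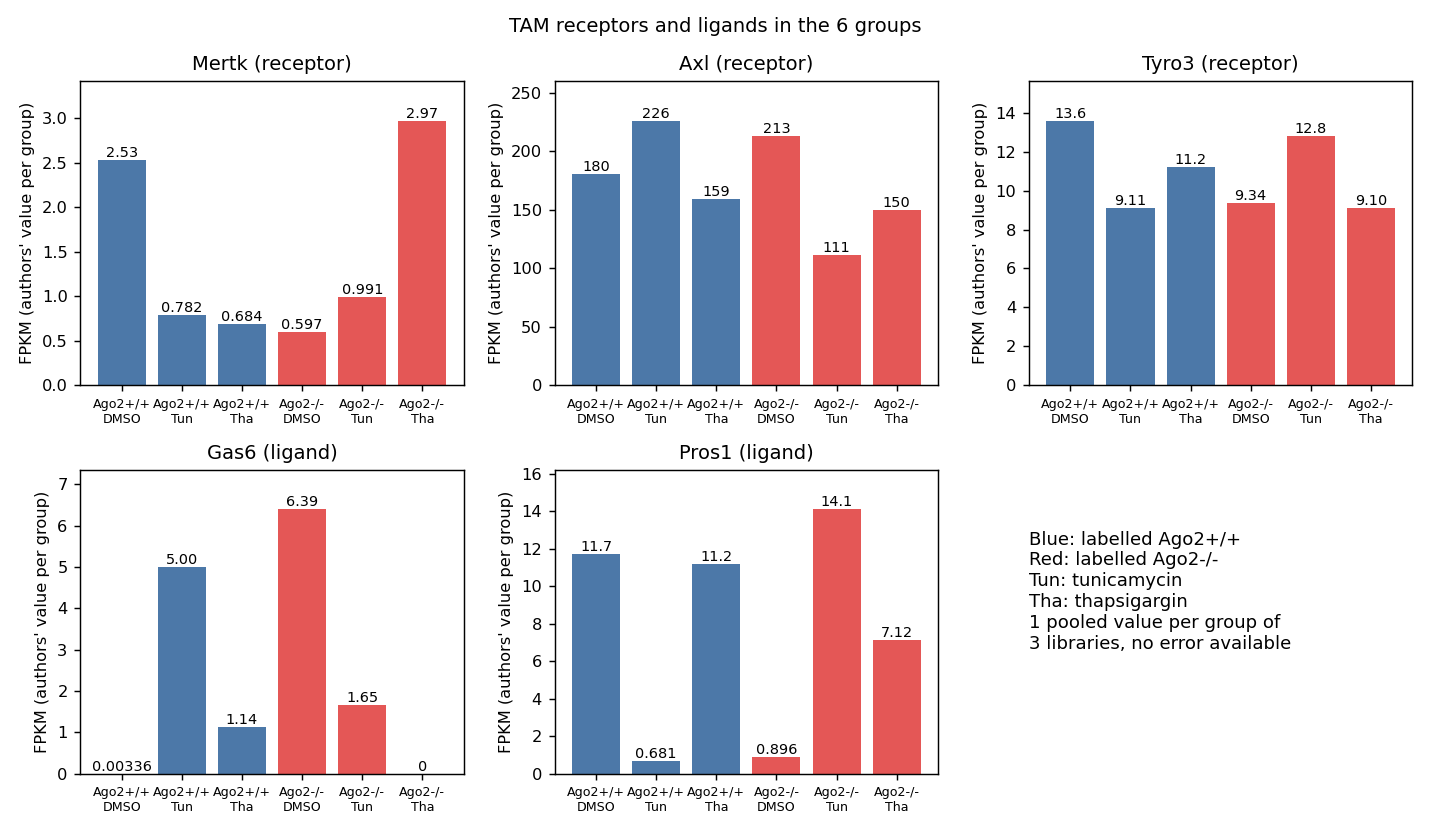
Deposited FPKM (vertical axis, linear and starting at 0) of the 3 TAM receptors and 2 ligands in the 6 groups, 1 bar per group without error bars because each value is an estimate over 3 libraries. Mertk is highest in Ago2+/+ DMSO (2.53) and Ago2-/- thapsigargin (2.97), Gas6 is near 0 in these same groups, and Axl stays between 111 and 226.

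Gas6 (ENSMUSG00000031451, minus strand, locus at chr8:13435189-13494490), the ligand that binds all 3 receptors, had the widest range of the 5 genes. It was at 0.00336 FPKM in DMSO, 5.0 in tunicamycin and 1.14 in thapsigargin of the cells labelled Ago2+/+. In those labelled Ago2-/- it was at 6.39 FPKM in DMSO and 1.65 in tunicamycin, and was listed at 0 in thapsigargin. The groups with Gas6 at or near 0 were those with the most Mertk, and they are a close pair over all loci. No linear fold is given against these groups, and every log2 ratio of Gas6 against them depends on the added 0.1. With tunicamycin in the cells labelled Ago2-/- it was 3.86-fold lower than in DMSO. Over the whole table, 2 loci were at 0 in Ago2-/- thapsigargin with at least 5 FPKM in each of the other groups. Only 3.05% of all loci had a wider range over the groups on the log2(FPKM + 0.1) scale. The locus also takes in Tmem255b on the opposite strand, which shares 3100 bases with Gas6. Tmem255b was listed at 0 in all 6 groups, and the sources used here do not say whether strand was used in counting.

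Pros1 (ENSMUSG00000022912, plus strand of chr16:62854307-62929346) encodes protein S, a cofactor in anticoagulation and a ligand of Tyro3 and Mertk. It was at 11.7, 0.681 and 11.2 FPKM in DMSO, tunicamycin and thapsigargin of the cells labelled Ago2+/+ and at 0.896, 14.1 and 7.12 FPKM in those labelled Ago2-/-. Ago2+/+ tunicamycin and Ago2-/- DMSO were below 1 FPKM and the other 4 groups above 7 FPKM. Tunicamycin went with a level 17.1-fold lower than DMSO under the Ago2+/+ label and 15.7-fold higher under the Ago2-/- label. Thapsigargin went with nearly the same level as DMSO under the Ago2+/+ label (1.04-fold lower) and with a 7.94-fold higher level under the Ago2-/- label. Its range was wider than that of all but 7.46% of loci. The nearest gene before it on the chromosome, Arl13b, was also lowest in the groups low in Pros1, at 9.65 FPKM in Ago2+/+ tunicamycin and 12.3 in Ago2-/- DMSO against 18.6 to 24.3 FPKM in the others. Arl13b was named after its values were seen. The nearest gene after Pros1, 4930453N24Rik, was at 19.1 and 19.4 FPKM in these groups against 21.8 to 25.0 FPKM in the others. Flanking genes of the other members are not described. These groups are a close pair over all loci, and a link was not tested.

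Which ligand was the more abundant differed between groups. Gas6 made up 88.0% of the summed ligand level in Ago2+/+ tunicamycin and 87.7% in Ago2-/- DMSO, the groups low in Pros1. It made up 9.22% in Ago2+/+ thapsigargin, 10.5% in Ago2-/- tunicamycin and 0.0289% in Ago2+/+ DMSO. The sum of the ligands ranged from 5.68 FPKM in Ago2+/+ tunicamycin to 15.8 FPKM in Ago2-/- tunicamycin. Receptor exceeded ligand everywhere, from 7.91-fold in Ago2-/- tunicamycin to 41.5-fold in Ago2+/+ tunicamycin.

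**Figure D2:**
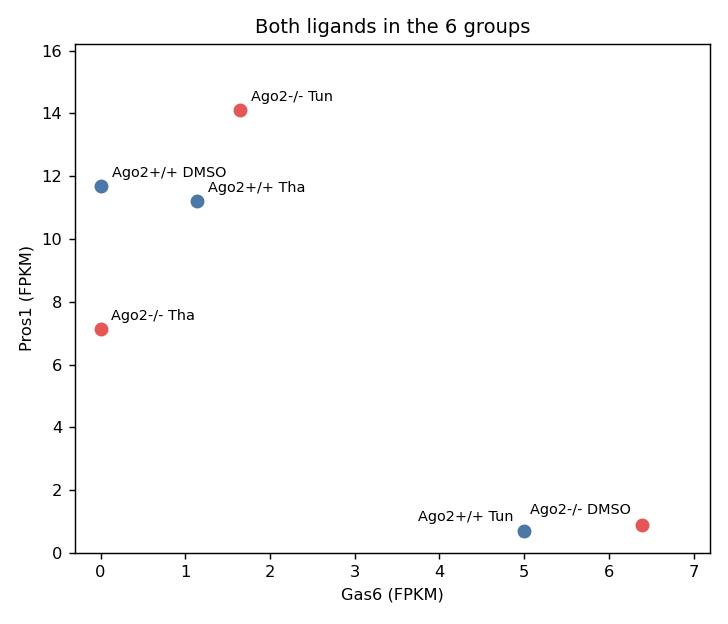
Pros1 against Gas6 (both in FPKM, linear axes), 1 point per group, blue for the Ago2+/+ label and red for the Ago2-/- label. The groups Ago2+/+ tunicamycin and Ago2-/- DMSO lie at high Gas6 with Pros1 below 1, and the other 4 at Gas6 of at most 1.65 with Pros1 of at least 7.12.

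In the cells labelled Ago2+/+, tunicamycin was compared with DMSO, a comparison in which treatment and label cannot be told apart. Of the 5 genes, 3 were past 2-fold, Gas6 higher and Mertk and Pros1 lower, while 17.9% of all 11929 loci were. The members' median log2 ratio was -0.57, beside 0.01 for all loci. Thapsigargin against DMSO under the same label had 2 past 2-fold, Gas6 higher and Mertk lower, against 16.8% of loci, with a median of -0.18 (all loci 0.01). Both comparisons use the same DMSO group, so they are not independent of each other.

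In the cells labelled Ago2-/-, tunicamycin against DMSO had Pros1 higher and Gas6 lower past 2-fold, 2 of 5 against 22.0% of loci, with a median log2 ratio of 0.45 (all loci 0.00). Thapsigargin against DMSO had Mertk and Pros1 higher and Gas6 lower, 3 of 5 against 18.0% of loci, with a median of -0.04 (all loci -0.02). By sign alone, Mertk and Pros1 were lower in Ago2+/+ and higher in Ago2-/- under both stressors, as were 14.2% of loci, although for Pros1 the thapsigargin ratio in Ago2+/+ was only -0.06 on the log2 scale. Gas6 had the opposite 4 signs, as did 14.8% of loci. Axl and Tyro3 had neither set of signs.

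Between the labels within a treatment, 3 genes differed past 2-fold in DMSO, with Gas6 higher and Mertk and Pros1 lower under the Ago2-/- label, where 18.0% of loci differed. In tunicamycin 3 did, Pros1 higher (20.7-fold) and Gas6 (3.02-fold) and Axl lower, where 21.4% of loci did. In thapsigargin 2 did, Mertk higher (4.33-fold) and Gas6 lower, where 17.4% of loci did. No gene of the family had the same direction past 2-fold in all 3 treatments. With 5 genes, a share of 2 or 3 of them is a coarse measure, and nothing particular to the family is read from these counts.

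**Figure D3:**
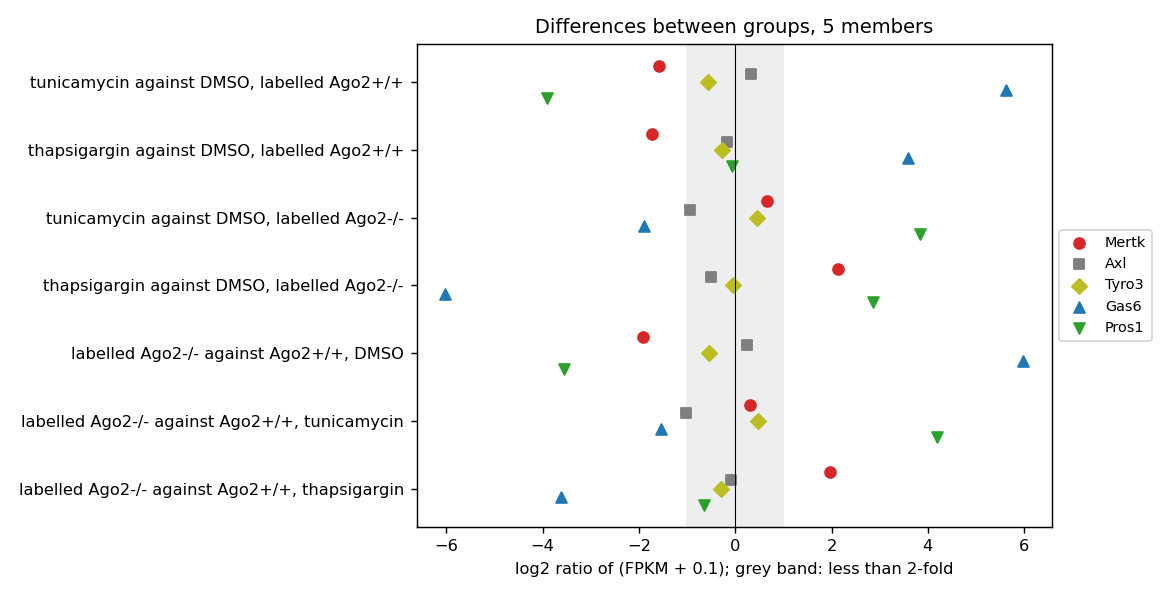
Differences of the 5 genes in the 7 comparisons, as log2 of the ratio of (FPKM + 0.1) on the horizontal axis, 1 symbol per gene and comparison, with the grey band marking less than 2-fold. Tyro3 lies in the band throughout, Axl leaves it once at -1.03, and Gas6 lies outside it in every comparison. The Gas6 values depend on the added 0.1 where a group is at or near 0.

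The differences of Gas6 followed the close pairs of groups, those of Mertk and Pros1 did so in part, and those of Axl and Tyro3 did not. Within the 3 pairs, Gas6 differed by 0.05 to 0.50 on the log2(FPKM + 0.1) scale, and in all of the other 12 pairs by more (1.54 to 6.02), a property that 17.6% of loci shared. Mertk differed by 0.22 to 0.48 within the close pairs, and 9 of the other 12 were above that. Pros1 differed by 0.33 to 0.70 within them, with 9 of the other 12 above. The smallest difference among the other 12 was 0.17 for Mertk and 0.06 for Pros1, below their smallest within a close pair. The share of all loci with 9 of 12 above was not counted. For Tyro3 none of the other 12 was above the highest value within a close pair (0.57), and for Axl 4 were. Each stress group was also set against the DMSO group of the other label. Tunicamycin under the Ago2+/+ label then had 0 genes of the 5 past 2-fold in place of 3 (172 of all 11929 loci in place of 2135), with log2 ratios of 0.34 for Mertk, -0.35 for Gas6 and -0.35 for Pros1. Thapsigargin under the Ago2-/- label also had 0 in place of 3 (427 loci in place of 2149). The other 2 comparisons kept their count of 2 genes, with 2459 loci in place of 2006 for thapsigargin under the Ago2+/+ label and 2035 in place of 2623 for tunicamycin under the Ago2-/- label.

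The sequences upstream of Mertk, Pros1 and Gas6 are shown because these 3 genes carried the differences, 2 with the same set of signs and 1 with the opposite. They are the 250 bases before each RefSeq start site on GRCm38.p6, written 5′ to 3′ on the gene's strand, with CpG dinucleotides in capitals. The windows are chr2:128698665-128698914 (plus strand) for Mertk, chr16:62854057-62854306 (plus strand) for Pros1 and chr8:13494536-13494785 (minus strand) for Gas6.
Mertk upstream: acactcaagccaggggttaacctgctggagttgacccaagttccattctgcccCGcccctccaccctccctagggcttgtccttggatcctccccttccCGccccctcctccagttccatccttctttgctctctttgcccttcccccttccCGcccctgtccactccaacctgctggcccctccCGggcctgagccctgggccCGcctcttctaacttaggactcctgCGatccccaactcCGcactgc
Pros1 upstream: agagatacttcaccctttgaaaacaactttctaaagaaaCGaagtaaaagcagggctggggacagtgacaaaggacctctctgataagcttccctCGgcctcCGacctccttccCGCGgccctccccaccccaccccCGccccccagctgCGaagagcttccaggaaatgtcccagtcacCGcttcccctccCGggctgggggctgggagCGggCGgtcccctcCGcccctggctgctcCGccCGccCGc
Gas6 upstream: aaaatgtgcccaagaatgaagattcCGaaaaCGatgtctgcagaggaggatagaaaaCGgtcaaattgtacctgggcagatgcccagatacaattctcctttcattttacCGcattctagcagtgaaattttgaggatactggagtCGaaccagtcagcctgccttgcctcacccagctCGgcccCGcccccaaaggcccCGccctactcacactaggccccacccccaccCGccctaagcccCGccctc
With the next 50 bases included, GC content was 66.0% for Mertk, 66.7% for Pros1, 58.3% for Gas6, 73.3% for Tyro3 and 60.3% for Axl, all above the median of 52.7% over 32851 RefSeq promoters of that length. They held 14, 21, 17, 31 and 6 CpG, beside a median of 7. The unfolded protein response element UPRE (searched as TGACGTGG, present in 0.676% of promoters), the amino acid response element CARE (TGATGCAA, 0.895%) and the core of the interferon response element ISRE (GAAANNGAA, 8.56%) were searched on both strands. None of the 5 promoters held any of these letters, which says little where at most 8.56% of promoters match. No other ER stress element was searched.

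Set beside the other receptor tyrosine kinases, Axl was the most abundant. Of 58 such kinases, 27 had a mean of at least 1 FPKM, and by mean level Axl ranked 1, Tyro3 13 and Mertk 27 of these. Fgfr2, which ranked 5 by mean, shares its locus with Ctbp2, so its place above Tyro3 and Mertk may rest on that gene. By range over the groups Mertk ranked 10, Axl 19 and Tyro3 23 of the 27. Mertk entered these 27 with a mean of 1.42 FPKM, reached only through its high groups. Epha4 and Ephb2, ephrin receptors of cell contact, had the widest ranges. Epha4 was listed at 0 in Ago2+/+ DMSO and Ago2-/- thapsigargin, where Gas6 was also at or near 0, and reached 15.9 FPKM in Ago2+/+ tunicamycin. Ephb2 was lowest in Ago2+/+ tunicamycin (0.0302 FPKM) and Ago2-/- DMSO (0.00997 FPKM), the groups low in Pros1. Each of these pairs of groups is a close pair over all loci, and a link to Gas6 or Pros1 was not tested. Of the 24 other kinases above the filter, 5 were higher and 4 lower past 2-fold with tunicamycin under the Ago2+/+ label, 7 and 0 with thapsigargin, and under the Ago2-/- label 11 and 2, and 6 and 4. Over all 11929 loci these counts were, in the same order, 1146 and 989, 1106 and 900, 1389 and 1234, and 979 and 1170.

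**Figure D4:**
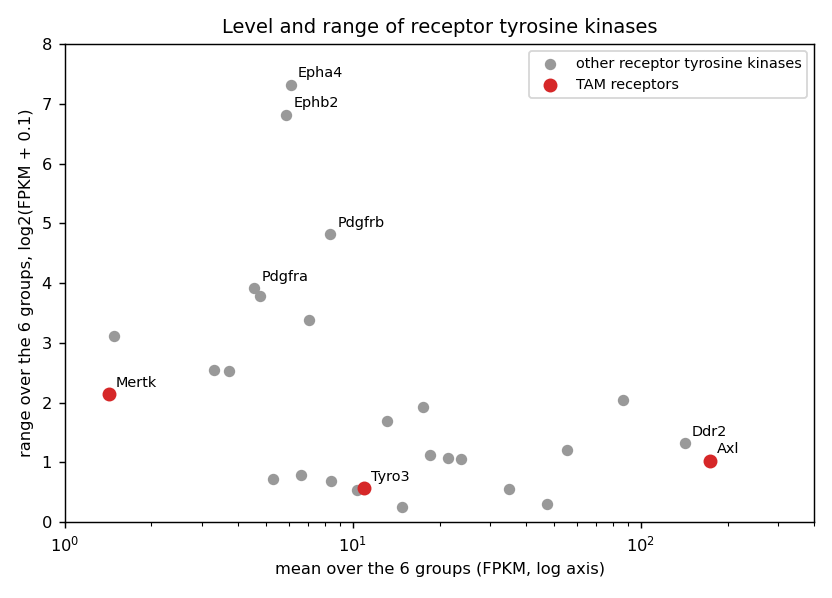
Mean level over the 6 groups (horizontal, FPKM on a log axis) and range over the groups (vertical, on the log2(FPKM + 0.1) scale) of the 27 receptor tyrosine kinases with a mean of at least 1 FPKM, 1 point per kinase, TAM receptors in red. Axl lies at the right edge with a range of 1.03, Mertk at the left with 2.14 and Tyro3 between them with 0.57.

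The ligands need vitamin K-dependent carboxylation. Ggcx, the carboxylase itself, was at 0.132 to 0.442 FPKM and below the filter. The other 5 genes of the vitamin K cycle passed it. Among the reductases, Vkorc1 was at 27.5 to 41.4 FPKM and Vkorc1l1 at 20.3 to 23.9 FPKM. Aifm2 was at 5.99 to 14.4 FPKM, and past 2-fold between the labels in tunicamycin (log2 ratio 1.25, higher under Ago2-/-). Vkorc1 shares its locus with Prss53 and Gm21974. Nqo1, a quinone reductase, was at 0.335, 4.95 and 10.5 FPKM in the Ago2+/+ groups and at 5.12, 10.6 and 0.763 FPKM in the Ago2-/- groups, in the order DMSO, tunicamycin, thapsigargin. Its low groups were those with Gas6 at or near 0, which are a close pair over all loci, and a link between the genes was not tested. Past 2-fold, 1 of the 5 was higher and none lower with each stressor under the Ago2+/+ label and with tunicamycin under the Ago2-/- label, and 1 was lower with thapsigargin under the Ago2-/- label. The shares of all loci past 2-fold were 17.9% (tunicamycin) and 16.8% (thapsigargin) under the Ago2+/+ label, and 22.0% and 18.0% under the Ago2-/- label.

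Of 12 other Gla proteins, 4 had a mean of at least 1 FPKM. Mgp, an inhibitor of calcification, was at 0.0194, 27.0 and 32.6 FPKM in the Ago2+/+ groups and at 27.2, 83.6 and 0.288 FPKM in the Ago2-/- groups. Its low groups were again those low in Gas6, the same close pair. Prrg4, a transmembrane Gla protein, ran from 0.351 FPKM in Ago2+/+ thapsigargin to 11.1 FPKM in both Ago2+/+ tunicamycin and Ago2-/- DMSO. The groups at 11.1 FPKM are also a close pair. With tunicamycin 2 of the 4 were higher and 0 lower under the Ago2+/+ label, and 1 and 1 under the Ago2-/- label. With thapsigargin these counts were 1 and 1, and 1 and 2. Beside them, 17.9 and 22.0% of all loci were past 2-fold with tunicamycin under the Ago2+/+ and Ago2-/- labels, and 16.8 and 18.0% with thapsigargin. Lgals3, a galectin proposed as a Mertk ligand, was at 287, 389 and 108 FPKM in the Ago2+/+ groups and 395, 88.0 and 290 FPKM in the Ago2-/- groups. The other proposed ligands Tub and Tulp1 were below the filter.

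Downstream of the receptors, 23 of 25 signalling partners had a mean of at least 1 FPKM. Of these, 3 were higher and 0 lower past 2-fold with tunicamycin under the Ago2+/+ label, 1 and 2 with thapsigargin, and under the Ago2-/- label 0 and 1, and 1 and 1. Among all loci, 17.9, 16.8, 22.0 and 18.0% were past 2-fold in these comparisons, in the same order. Their medians lay between -0.10 and 0.06 on the log2 scale over the 7 comparisons. Elmo1, which with Dock1 activates Rac1 in engulfment, had the widest range, at 0.00136, 9.79 and 3.94 FPKM in the Ago2+/+ groups and 10.6, 4.08 and 0.0127 FPKM in the Ago2-/- groups. Twist1, a transcription factor linked to Axl signalling, was at 21.5, 11.7 and 10.7 FPKM and at 13.5, 11.6 and 33.4 FPKM, highest in the groups with the most Mertk. Its relative Twist2 was at 19.5, 55.5 and 34.8 FPKM and at 50.7, 35.1 and 26.2 FPKM, lowest in those same groups, which are a close pair over all loci. Socs1, a suppressor of cytokine signalling downstream of TAM receptors, lay between 3.05 and 8.58 FPKM. Adam10 and Adam17, proteases that shed Mertk and Axl from the surface, were past 2-fold in no comparison, at 30.4 to 39.3 and 16.0 to 24.1 FPKM.

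Of 7 genes of phosphatidylserine exposure, all passed the filter. Under the Ago2+/+ label 0 were past 2-fold with tunicamycin (17.9% of all loci) and 0 with thapsigargin (16.8%). Under the Ago2-/- label 2 were higher and 1 lower with tunicamycin (22.0%) and 0 and 2 with thapsigargin (18.0%), and the difference between the labels was not tested. Plscr1, a phospholipid scramblase with the widest range of the list, was highest in Ago2+/+ tunicamycin (29.5 FPKM) and Ago2-/- DMSO (33.8 FPKM) and at 13.8 to 19.0 FPKM in the others. Xkr8, the scramblase activated in apoptosis, was also highest in those groups (2.40 and 2.60 FPKM). Plscr3 and the scramblase Ano6 had their highest levels in Ago2+/+ thapsigargin (40.4 and 37.6 FPKM) and Ago2-/- tunicamycin (39.4 and 37.5 FPKM). Each of these pairs of groups is a close pair over all loci, and a link between the genes was not tested. Of 24 other engulfment receptors and bridging proteins, 12 passed the filter. Sirpa, the receptor of the signal Cd47 that restrains engulfment, had the widest range, at 4.72 FPKM in Ago2+/+ thapsigargin and 6.57 FPKM in Ago2-/- tunicamycin against at most 0.403 FPKM elsewhere. Megf10, an engulfment receptor, was at 4.8 FPKM in Ago2+/+ tunicamycin and 3.40 FPKM in Ago2-/- DMSO against at most 0.0207 FPKM elsewhere. The high groups of Sirpa and those of Megf10 are again close pairs, and each gene passed the filter only through them. Thbs1, a bridging protein of the matrix, was at 19.2, 97.2 and 246 FPKM in the Ago2+/+ groups and 92.0, 213 and 24.3 FPKM in the Ago2-/- groups. Its highest groups and its lowest groups are also close pairs. Past 2-fold, 2 of the 12 were higher and 1 lower with tunicamycin under the Ago2+/+ label, 3 and 0 with thapsigargin, and under the Ago2-/- label 3 and 1, and 0 and 2. The shares of all loci in these comparisons were those given above.

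Macrophages are the cells in which Mertk is best known, so their markers were measured. Of 10 macrophage markers, 2 had a mean of at least 1 FPKM, Cd14 at 2.40 to 16.7 FPKM and Cd68 at 1.13 to 1.82 FPKM, and Adgre1 and Tyrobp were listed at 0 in all groups. The summed level of all 10 ran from 3.85 FPKM in Ago2-/- tunicamycin to 17.9 FPKM in Ago2-/- DMSO, where Cd14 made up 16.7 FPKM. Cd68 was highest in the groups with the most Mertk, a close pair over all loci. It was at 1.77 FPKM in Ago2+/+ DMSO and 1.82 FPKM in Ago2-/- thapsigargin against 1.13 to 1.36 FPKM elsewhere. Cd14 was not, being highest in Ago2-/- DMSO, the group with the least Mertk. The other 8 markers were below the filter. The part of such cells in the Mertk level was not tested. None of 6 epithelial and none of 6 endothelial markers reached the filter, with sums of 0.205 to 2.01 and 0.210 to 0.530 FPKM. In these bulk samples, fewer cells of a type and less RNA per cell cannot be told apart.

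The loci whose profile over the 6 groups was most like that of each member were found by the root mean square difference of centred log2(FPKM + 0.1), among 11575 loci that held 1 gene name and passed the filter on the mean. Nearest to Mertk were Pstpip1 (0.114), a cytoskeletal adaptor, Abca5 (0.164), a lipid transporter, and Chchd7 (0.170), and 14 loci lay within 0.25. Gas6 had 2 loci within 0.25, the axon guidance ligand Sema3e (0.146) and the homeobox gene En1 (0.235), followed by the glycosyltransferase Galnt18 (0.258). En1 and Galnt18 were listed at 0 in Ago2+/+ DMSO and Ago2-/- thapsigargin, and Sema3e was at 0.138 FPKM in both. These low levels follow from picking loci for a profile like that of Gas6, and these groups are a close pair over all loci. Pros1 had 1 within 0.25, the peroxisomal hydrolase Nudt7 (0.199), followed by Pik3r5 (0.273) and the dehydrogenase Dhrs4 (0.275). Axl and Tyro3, with flatter profiles, had 1375 and 2218 loci within 0.25. The nearest to Axl were Gm16477, Gm11703 and Gpatch4, and the nearest to Tyro3 were C1qtnf12, Slc25a25 and Gm12258. The measure rests on 6 values per locus and is a description only.

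**Figure D5:**
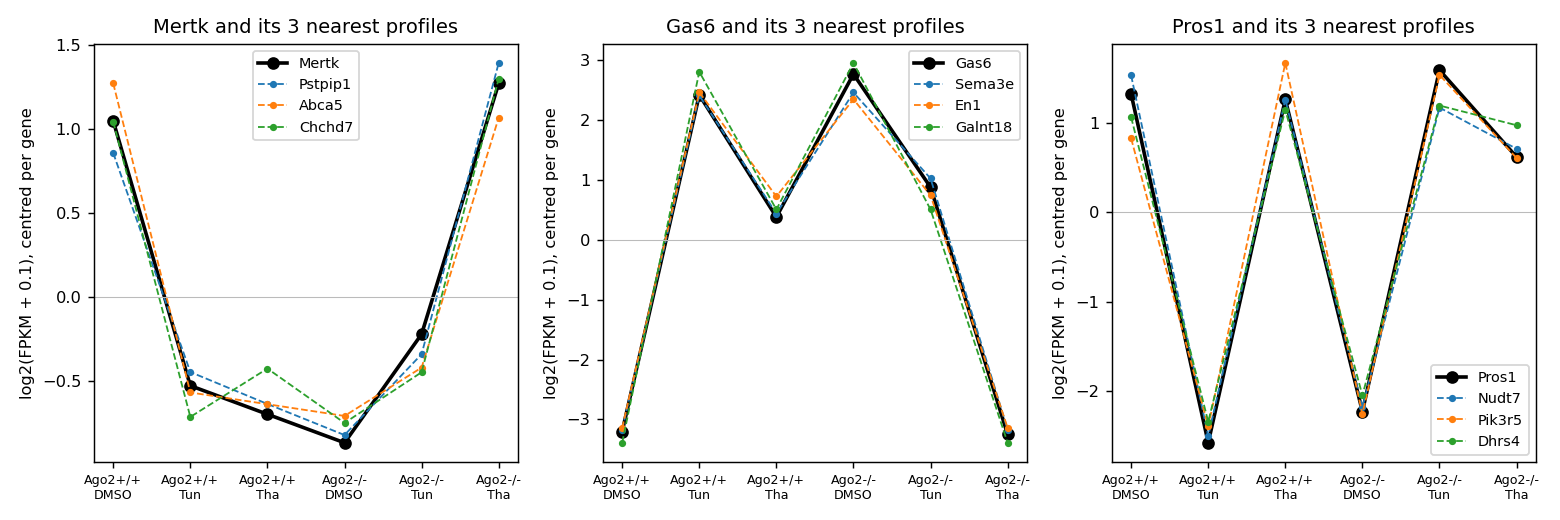
Profiles over the 6 groups of Mertk, Gas6 and Pros1 (black) and of the 3 loci nearest to each (dashed), as log2(FPKM + 0.1) minus the locus mean, with lines only to guide the eye. Mertk peaks in Ago2+/+ DMSO and Ago2-/- thapsigargin, where Gas6 is lowest, and Pros1 is lowest in Ago2+/+ tunicamycin and Ago2-/- DMSO.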

How the data were processed

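RNA-seq of 18 MEF libraries was analysed from the authors' deposited table of 772485 rows, 1 for each of 51499 loci and 15 pairs of groups. According to the submitters' processing notes and the study's methods, reads were checked with FastQC 0.11.7, aligned with HISAT2 2.1.0 to GRCm38 (Ensembl release 91), assembled with StringTie 1.3.4d and quantified with Cuffdiff 2.2.1. The sources used here do not give the library scaling or the strandedness. The deposited FPKM is the authors' estimate per group over 3 libraries, with no error. The deposited fold changes, test statistics, p-values and q-values of the authors' own comparisons were not used. Of the low values in a group, at most 40.2% lay within 0.1 of a whole multiple of the best step (20% without steps), so whole reads could not be recovered and depth is unknown.

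Libraries were grouped by title. The titles call the Ago2+/+ groups DCR1, and the sources used here give no reason. The 5 members and all gene lists were chosen with earlier results of these data known. From each list, up to 4 genes with the widest range of log2(FPKM + 0.1) and a mean of at least 1 FPKM are named, together with members of lists of 6 or fewer genes and the 3 nearest profiles of each member. Markers and Ago2 check the labels. Arl13b, 4930453N24Rik, Tmem255b, Gm23172 and Gm14011 are neighbours, of which Arl13b and 4930453N24Rik were named after their values were seen. Ratios were computed with Python 3.11.15, pandas 2.3.3 and numpy 2.4.6. The code was run on deposited values multiplied by known factors. No noise was added, so that run checks the arithmetic only. Promoters were those of RefSeq (GRCm38.p6), where all 5 members matched. Protein sequences were not analysed here. Alternatives were a pseudocount of 1, none, no filter, a fold of 4, centring on the median and the DMSO group of the other label.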

Additional observations from a re-analysis of the deposited data

Results flagged for a closer look

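For several TAM genes the change with a stressor had opposite signs under the genotype labels. The difference, the log2 change against DMSO under the Ago2-/- label minus that under the Ago2+/+ label, was not tested, since each group has 1 value. With tunicamycin it was 2.22 for Mertk, -1.27 for Axl, 1.02 for Tyro3, -7.51 for Gas6 and 7.74 for Pros1. With thapsigargin it was 3.88 for Mertk, -9.60 for Gas6 and 2.91 for Pros1. The Gas6 values are set by the added 0.1 FPKM, since Gas6 was at 0.00336 FPKM in Ago2+/+ DMSO and listed at 0 in Ago2-/- thapsigargin. Each difference includes both DMSO groups, whose Ago2 levels were 22.1 FPKM (Ago2+/+) and 5.61 FPKM (Ago2-/-).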

How the results depend on the processing

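No paired analysis was possible because each group has 1 deposited value over its libraries, and leaving out each replicate in turn was not run for the same reason. Protein identities were not run. Only pooled values and an unknown depth limit every statement, and a level near 0 cannot be told from a failed estimate. Centring on the median of all loci left all 35 member log2 ratios on the same side of 2-fold with the same direction. A pseudocount of 1 moved 1 of them, Mertk with tunicamycin under the Ago2+/+ label, to -0.99, so that this comparison counted 2 members past 2-fold in place of 3. Without a pseudocount 33 could be computed and kept direction and side, and the thapsigargin comparison between labels then counted 1 member past 2-fold in place of 2, because Gas6 at 0 dropped out, and thapsigargin under Ago2-/- 2 in place of 3 for the same reason.

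In the order of the stress comparisons (tunicamycin and thapsigargin under Ago2+/+, then under Ago2-/-) and the label comparisons (DMSO, tunicamycin, thapsigargin), loci past the fold numbered 4000, 3989, 4976, 4160, 4043, 4851 and 4053 with no filter and 989, 915, 1084, 988, 992, 1065 and 902 at 4-fold. More loci enter without the filter. At 4-fold, 1 member in place of 2 was past it with thapsigargin under Ago2+/+, with tunicamycin under Ago2-/- and between labels in thapsigargin, and 1 in place of 3 between labels in tunicamycin. With tunicamycin under Ago2+/+ and between labels in DMSO it was 2 in place of 3, and thapsigargin under Ago2-/- kept 3.

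Against the DMSO group of the other label, tunicamycin under Ago2+/+ had 0 members and 172 loci past 2-fold, and thapsigargin under Ago2-/- had 0 and 427. Thapsigargin under Ago2+/+ kept 2 members (2459 loci) and tunicamycin under Ago2-/- 2 (2035 loci). Direction reversed for Mertk (0.34) and Gas6 (-0.35) with tunicamycin and for Mertk (0.17) and Gas6 (-2.39) with thapsigargin under Ago2+/+, and under Ago2-/- for Gas6 with tunicamycin (4.08, set by the added 0.1 FPKM) and Pros1 with thapsigargin (-0.70). Of the 20 ratios, 10 changed direction, and these 6 were the ones among them that had been past 2-fold. Below 2-fold before, Mertk with tunicamycin under Ago2-/- went from 0.65 to -1.27 and Pros1 with thapsigargin under Ago2+/+ from -0.06 to 3.50. The cause was not tested. Members lower in Ago2+/+ and higher in Ago2-/- under both stressors numbered 2, 0 against the other DMSO group, and 0 when each change had to be 2-fold.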
